A study of Mus musculus with 16 samples.

Results

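Airn and Igf2r form an imprinted pair on mouse chromosome 17. Their DNA methylation was described at the measured CpGs that lie between 2 kb upstream of the start and the end of either gene in the GENCODE M21 annotation of mm10. This rule selected 118 of the 1203687 CpGs used by the study's authors, 105 of them for Airn, 76 for Igf2r and 63 for both. The 1203687 CpGs had at least 10 reads in all 16 libraries. According to the paper, the chromosomes found to be aneuploid and the sex chromosomes had been removed, so all CpGs below lie on the other autosomes. Igf2r (ENSMUSG00000023830.14) lies at chr17:12682406-12769664 on the minus strand, and Airn (ENSMUSG00000078247.4) at chr17:12741311-12860136 on the plus strand, so that the first exon of Airn sits in an Igf2r intron. Among the CpGs of Igf2r, 3 were exonic, 56 intronic and 17 upstream, and among those of Airn 2 were exonic and 103 intronic.

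Igf2r encodes a receptor that carries insulin-like growth factor 2 and lysosomal enzymes to the lysosome, and in most mouse tissues it is transcribed from the maternal copy. Airn is a long non-coding RNA transcribed across the Igf2r promoter in the opposite direction, from the paternal copy, and it silences the paternal Igf2r copy in cis. The Airn promoter is the imprint control element of the cluster and carries methylation of maternal origin, whereas the Igf2r promoter gains methylation on the paternal copy. A region methylated on 1 of 2 equally frequent parental copies has a level near 50%.

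The libraries came from target capture bisulfite sequencing (tcBS-seq), in which captured fragments of genomic DNA are treated with bisulfite so that methylated and unmethylated cytosines can be counted. Mouse embryonic fibroblasts (MEFs) of a pair of C57BL/6J sibling embryos (E13.5) were immortalised by serial passage, which gave the parental cultures MEF-1 (male) and MEF-2 (female), and 7 lines grown from single sorted cells of each culture were sequenced beside the parental culture itself. The family of a line therefore coincides with its embryo, its sex and its passage history, and these cannot be told apart. In an inbred strain the parental copies carry no known sequence differences, so reads were not assigned to the maternal or paternal copy. As far as the labels say, no group was treated or carried an engineered allele, and each family had 1 parental library. A level is the percentage of calls (1 call is 1 read over 1 CpG) that were methylated.

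Libraries held between 59243669 and 90633091 calls, and the 118 CpGs had a median of 31 reads (10 to 161) over all libraries, beside 32 for all CpGs. The fibroblast label was checked on promoter methylation alone, since no expression was analysed here. Of 9 fibroblast genes 7 had measured promoters, and 5 of these were below 10% in both families (Vim at 1.72% in MEF-1 lines and 1.11% in MEF-2 lines), while S100a4 was near 50% and Thy1, with 1 measured CpG, was methylated. Markers of other cell types gave a mixed picture. The 2 measured of 3 blood genes were methylated in both families (Ptprc at 74.7 and 84.9%, Cd79a at 59.4 and 68.3%, MEF-1 lines first). Of 3 epithelial genes, all measured, Krt8 was at 95.9 and 82.0%, but Epcam at 22.6 and 10.3% and Cdh1 at 22.7 and 19.5%. Of the 2 measured of 3 endothelial genes, Pecam1 was at 82.1 and 67.1% and Kdr at 8.34 and 9.52%, so low promoter methylation was not particular to the fibroblast genes. MEF-1 line 1 stood apart from all other libraries by a low coverage of chromosome 17, given with the coverage results. MEF-1 lines 1, 4 and 5 were closer to each other than any other lines, and results that rest on line 1 are given with and without it.

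Stretches of the reference sequence (RefSeq, GRCm38.p6, the build also named mm10) printed here show where the measured CpGs lie, each written 5′ to 3′ on the strand of its gene with the measured CpGs in capitals. Printed first is chr17:12741311-12741610 on the plus strand, from the Airn start, which holds all 6 measured CpGs of the Airn promoter window. The second is chr17:12742701-12743000 on the plus strand, in the first 2 kb of Airn, where some lines were above their parental library at single CpGs. The third is chr17:12768946-12769245 on the minus strand, in the Igf2r intron that follows the first exon, and the fourth is chr17:12769871-12770170 on the minus strand, upstream of the Igf2r start.

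Airn start: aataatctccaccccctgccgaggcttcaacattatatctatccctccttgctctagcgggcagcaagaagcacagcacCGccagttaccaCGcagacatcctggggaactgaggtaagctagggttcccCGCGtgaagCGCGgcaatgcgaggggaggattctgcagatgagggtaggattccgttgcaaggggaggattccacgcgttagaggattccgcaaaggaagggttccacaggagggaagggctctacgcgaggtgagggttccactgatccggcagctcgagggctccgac

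Airn downstream: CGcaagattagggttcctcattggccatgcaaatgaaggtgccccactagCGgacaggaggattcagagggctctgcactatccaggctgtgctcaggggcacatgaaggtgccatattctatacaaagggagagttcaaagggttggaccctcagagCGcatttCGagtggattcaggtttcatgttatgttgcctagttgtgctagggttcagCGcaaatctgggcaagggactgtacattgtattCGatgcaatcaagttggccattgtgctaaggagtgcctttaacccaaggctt

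Igf2r gene side: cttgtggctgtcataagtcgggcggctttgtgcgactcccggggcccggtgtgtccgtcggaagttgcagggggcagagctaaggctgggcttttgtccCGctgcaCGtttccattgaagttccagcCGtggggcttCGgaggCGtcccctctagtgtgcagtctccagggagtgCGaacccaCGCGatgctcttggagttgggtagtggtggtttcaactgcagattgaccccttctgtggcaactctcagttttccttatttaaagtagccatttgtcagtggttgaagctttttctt

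Igf2r upstream side: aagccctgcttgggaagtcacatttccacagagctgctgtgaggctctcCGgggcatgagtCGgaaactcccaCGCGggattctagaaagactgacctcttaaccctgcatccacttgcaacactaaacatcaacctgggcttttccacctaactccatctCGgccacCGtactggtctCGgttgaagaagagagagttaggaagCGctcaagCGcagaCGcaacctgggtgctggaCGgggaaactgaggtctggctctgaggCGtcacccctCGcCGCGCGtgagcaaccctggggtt

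In the Airn start stretch 6 of 18 reference CpGs were measured, and in the Igf2r gene side stretch 8 of 15. In the Airn downstream stretch 6 of 6 were measured, and in the Igf2r upstream stretch 16 of 16. The letters TGCCGC, which are the core of the motif bound by the imprint-maintaining protein ZFP57, were searched on both strands and occurred 1 time in the Airn start stretch and 0 times in the other 3. For comparison, 11.6% of 32851 mouse gene promoters of 300 bases held them.

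The promoter of a gene was taken as the window of 1 kb either side of its start. The Airn window held 75 reference CpGs and 6 measured ones, which lay 79 to 141 bp downstream of the start, 2 of them in the first Airn exon and the other 4 in the intron after it. These 6 CpGs span 63 bp and were mostly covered by the same fragments, so the Airn promoter level of a library is close to a single measurement of its 10.8 to 43.5 reads per CpG. Levels below are pooled over the CpGs of a window.

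Most lines had close to equal numbers of methylated and unmethylated calls at the Airn promoter. The MEF-1 parental library was at 47.6%, and MEF-1 lines 1 to 7 were at 7.69, 53.2, 47.4, 60.7, 37.5, 73.0 and 51.8%. The MEF-2 parental library was at 62.5%, and MEF-2 lines 1 to 7 were at 59.8, 58.6, 44.6, 57.5, 49.4, 36.3 and 56.2%. MEF-1 line 1 was the lowest of all libraries and MEF-1 line 6 the highest, and the families overlapped.

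The mean Airn promoter level was 47.3% ± 20.7 (SD, n = 7) in MEF-1 lines and 51.8% ± 8.77 (SD, n = 7) in MEF-2 lines. The MEF-1 minus MEF-2 difference was -4.45 percentage points and smaller than the spread between lines (exact permutation test of 7 against 7 lines, p = 0.653, or 0.871 after adjustment over the 8 windows and segments tested, all two-sided). Without MEF-1 line 1, MEF-1 lines had a mean of 53.9% ± 12.1 (SD, n = 6), and the difference turned to 2.15 points. Binomial sampling of the reads of 1 CpG would leave an SD of 9.67 points among MEF-1 lines and 9.77 points among MEF-2 lines. The SD between MEF-1 lines was 2.14 times this value with line 1 and 1.26 times the corresponding 9.59 points without it, while that between MEF-2 lines was below its own.

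At the 6 Airn promoter CpGs, MEF-1 line 1 had between 0 and 10% methylation with 10 to 12 reads each. The highest mean over the 14 lines was that of the CpG at 91 bp, at 50.5% in MEF-1 lines (8.33 to 71.4%) and 50.7% in MEF-2 lines (36.1 to 60%), and the lowest that at 130 bp, at 47.6% in MEF-1 lines (9.09 to 75.7%) and 50.6% in MEF-2 lines (34.3 to 63.2%). At 79 bp from the Airn start, a CpG chosen after its values were seen, 0 of 12 reads were methylated (95% Wilson interval 0 to 24.2%, counting error only), whereas the other 6 MEF-1 lines had 44 to 68.4% there. The interval of the CpG at 130 bp was 1.62 to 37.7% (1 of 11 reads) and reached the lowest other MEF-1 line, at 35.7%. None of these 6 CpGs was called against the MEF-1 parental library (Fisher's exact test across all CpGs, adjusted p from 0.0650 to 0.721). The gap between this line and the others is therefore wide but rests on few reads.

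With a minimum of 5 instead of 10 reads, 31 CpGs of the Airn window could be used. Over all 31, MEF-1 line 1 was at 24.6% and still the lowest library, as the others were at 39.8 to 72.5%. The SD of MEF-1 lines was 14.6 points (mean 48.9%, n = 7) and that of MEF-2 lines 6.99 points (mean 51.3%, n = 7). These CpGs were also split by distance from the start, a split made after the levels had been seen. Over 17 CpGs between 19 and 296 bp from the Airn start, MEF-1 line 1 was at 11.3% and the other 15 libraries were at 36.6 to 73.7%. Over 13 CpGs between 314 and 995 bp, it was at 43.6%, within the range of 28.4 to 73.4% of the other libraries. The mean depth of this line was 7.82 reads per CpG in the former set and 7.77 in the latter. With the minimum of 10 reads, MEF-1 line 1 alone was the lowest of the 16 libraries at 12 of the 118 members, and the other libraries at 3 to 13 each. Beside the 6 promoter CpGs, these were the CpGs 1217, 1736, 1754, 1882, 2017 and 111668 bp from the Airn start. At 1882 bp, for example, MEF-1 line 1 was at 27.5% (40 reads) and the other libraries were at 42.9% or above.

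**Figure D1:**
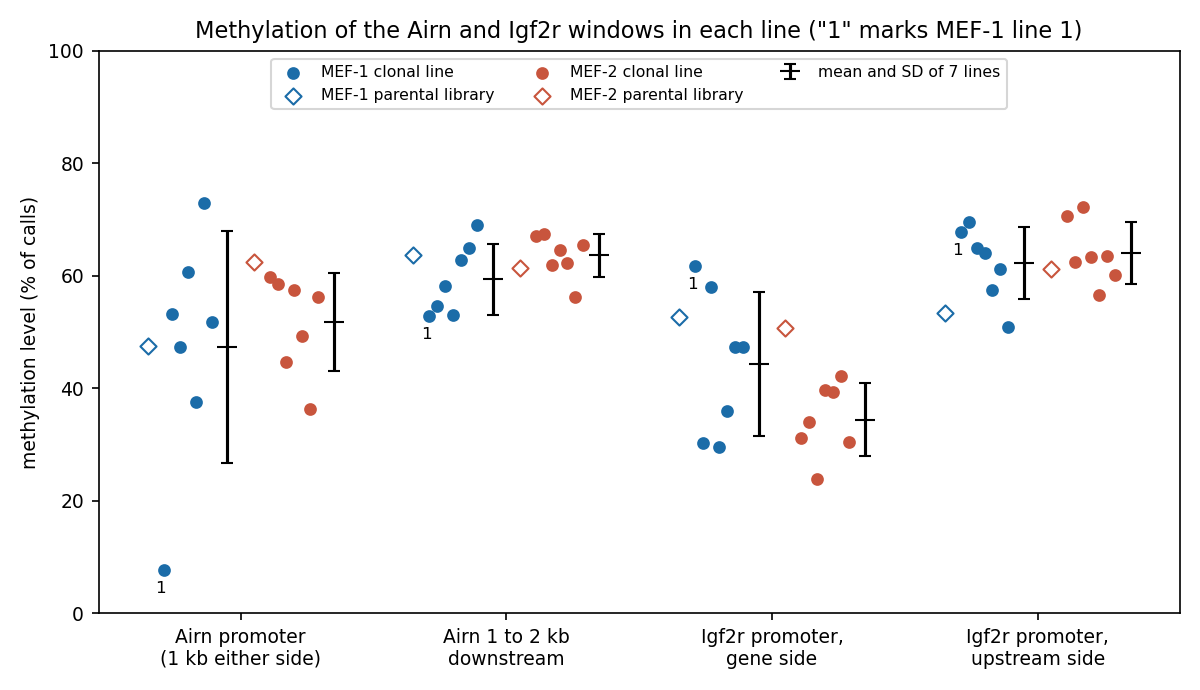
Methylation level (percentage of calls, y axis) of the Airn promoter window, the Airn stretch 1 to 2 kb downstream and both sides of the Igf2r promoter window. Filled points are clonal lines in the order 1 to 7, open diamonds the parental libraries, and bars the mean and SD of 7 lines. MEF-1 line 1 is at 7.69% at the Airn promoter and at 61.8% on the gene side of Igf2r, where it is the highest line.

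Farther into Airn, 1 to 2 kb downstream of its start, 18 of 34 reference CpGs were measured, all in introns of both genes. This stretch was added after the levels had been seen. The level was 59.3% ± 6.35 (SD, n = 7) for MEF-1 lines and 63.6% ± 3.87 (SD, n = 7) for MEF-2 lines, and the families did not differ beyond the spread between lines (difference -4.27 points, exact permutation p = 0.156, adjusted p = 0.312). MEF-1 line 1 was at 52.9% here, close to MEF-1 line 4 at 53.1%. In all clonal lines together, 135 of the 252 pairs of a CpG and a line (53.6%) were between 40 and 60%, beside 60.7% of the pairs at the Airn promoter and 9.59% over all CpGs of the series.

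Single CpGs of this Airn stretch departed from that level in single lines. The CpGs described for this stretch were chosen after their values were seen. At 1548 bp from the Airn start, MEF-1 line 7 was at 94.9% (37 of 39 reads, Wilson interval 83.1 to 98.6%), whereas the other MEF-1 lines were at 39.0 to 52.9%. At the same CpG MEF-2 line 4 was at 97.6% (41 of 42 reads) and MEF-2 line 7 at 95.1% (58 of 61 reads), beside 51.9% in the MEF-2 parental library. The next CpG, 7 bp away, was at 94.9% in MEF-1 line 7, but at 64.7% in MEF-2 line 4 and 67.7% in MEF-2 line 7. That neighbour was in turn at 96.2% (50 of 52 reads) in MEF-2 line 6, in which the CpG at 1548 bp was at 49.0%. All these levels above 90% were called against the parental library by Fisher's exact test (adjusted p from 9.79e-06 to 0.00301 over all CpGs of the line). The test compares a line with its whole culture and does not show when the difference arose.

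MEF-1 line 6 was likewise high at the CpGs 1390 bp (92.0%, 23 of 25 reads) and 1638 bp (94.0%, 47 of 50 reads) from the Airn start. The other MEF-1 lines reached at most 52.2% at the former and 56.9% at the latter. Of the 6 CpGs in the Airn downstream sequence above, 4 thus had a level of at least 90% in some line, while the nearest measured CpG of that line was at 45.2 to 67.7% in all cases but MEF-1 line 7. At 1754 bp the MEF-2 lines fell apart within the family: lines 2, 3, 4 and 7 were at 97.9, 97.4, 94.8 and 96.0%, and lines 1, 5 and 6 at 66.7, 49.0 and 42.9%, with the parental library at 66.2%.

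At other CpGs of the first Airn kilobases, also chosen after their values were seen, the families differed, in both directions. At 1736 bp from the start, MEF-1 lines were at 46.9 to 79.5% and MEF-2 lines at 91.2 to 100%. At 2017 bp the ranges were 27.3 to 68.4% in MEF-1 lines and 94.3 to 100% in MEF-2 lines. Both CpGs were called between the families by the model across all CpGs, as described further on, and at both the families did not overlap. The called CpG at 1901 bp went the other way, with MEF-1 lines at 97.1 to 100% and MEF-2 lines at 54.5 to 97.8%. At 1605 bp, the third called CpG of the stretch 1 to 2 kb downstream, MEF-1 lines were at 39.7 to 58.6% and MEF-2 lines at 53.4 to 68.5%, so the families overlapped. The CpG at 1746 bp, 10 bp from that at 1736 bp, was at 95.1 to 100% in MEF-1 lines and at 66.7 to 100% in MEF-2 lines, and was not called. The CpG at 2690 bp was above 90% in every library.

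**Figure D2:**
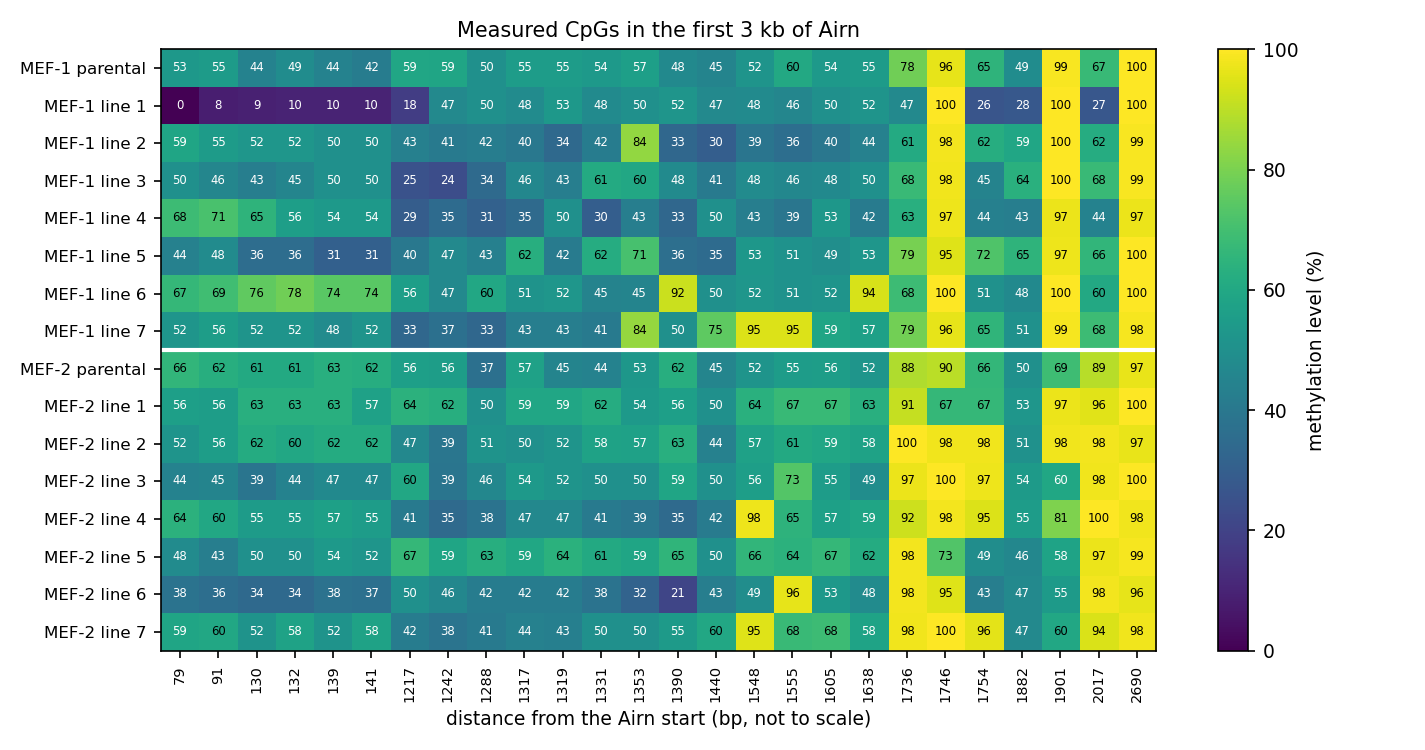
Methylation level of each of the 26 measured CpGs in the first 3 kb of Airn (columns, labelled by distance from the start in bp and not to scale) in each library (rows), with the level in percent printed in the cell and given by the colour scale. MEF-1 line 1 is at 0 to 10% in the first 6 columns, single bright cells mark CpGs that are high in some lines, and the last column is above 90% in every library.

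The Igf2r promoter window held 125 reference CpGs, of which 27 were measured. The nearest ones to the start lay 224 bp upstream and 519 bp inside the gene, so the first exon and the start itself are not covered. The measured CpGs fall into 10 on the gene side, all in the intron after the first exon, and 17 upstream. Over the whole window the MEF-1 parental library was at 53.1%, and MEF-1 lines 1 to 7 were at 65.6, 54.5, 62.5, 52.9, 51.6, 57.2 and 49.5%. The MEF-2 parental library was at 58.9%, and MEF-2 lines 1 to 7 were at 52.5, 51.4, 51.2, 54.5, 50.8, 57.7 and 47.8%. MEF-1 lines 1 and 3 were the highest, and the other 5 MEF-1 lines lay within the range of the MEF-2 lines.

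The Igf2r promoter level was 56.3% ± 5.91 (SD, n = 7) for MEF-1 lines and 52.3% ± 3.12 (SD, n = 7) for MEF-2 lines. The difference of 3.99 points did not pass the test (exact permutation p = 0.145, adjusted p = 0.312), and it was -2.06 points when the window was narrowed to 500 bp either side of the start. That narrower window held 16 CpGs, all of them upstream, so it left out the whole gene side. The sides of the start are also given apart. The upstream side alone was an alternative for the whole window, and the gene side was added after the levels had been seen.

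On the gene side of Igf2r the level of a line ranged from 23.9 to 61.8%. MEF-1 lines 1 to 7 were at 61.8, 30.3, 57.9, 29.6, 35.9, 47.3 and 47.3%, and their parental library was at 52.7%. MEF-2 lines 1 to 7 were at 31.1, 34.0, 23.9, 39.7, 39.4, 42.2 and 30.5%, and all 7 were below their parental library at 50.7%, as were 5 of the 7 MEF-1 lines below theirs. MEF-1 lines 1, 3, 6 and 7 were above every MEF-2 line, and MEF-1 lines 2, 4 and 5 lay within the MEF-2 range.

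The family means on the Igf2r gene side were 44.3% ± 12.9 and 34.4% ± 6.44 (SD, n = 7 each), a difference of 9.90 points that did not pass the test (exact permutation p = 0.0950, adjusted p = 0.312). Read sampling at 1 CpG would leave an SD of 11.2 points in the former and 9.33 points in the latter. The levels are pooled over 10 CpGs across 376 bp, so the sampling SD of a pooled level can be smaller than these values. MEF-1 line 2 was at 17.4 to 31.8% over the 8 CpGs of the printed gene side sequence, and MEF-1 line 3 at 50.0 to 75.0%. Neighbouring CpGs here share reads, so such a run is not 8 measurements. Of the 140 pairs of a CpG and a line, 54 (38.6%) were between 40 and 60%, 2 were at or below 10% and 0 were at or above 90%.

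The lowest mean of the window over the 14 lines was that of the CpG at position 12769138, 526 bp inside Igf2r, at 39.7% ± 20.1 in MEF-1 lines and 21.1% ± 16.4 in MEF-2 lines (SD, n = 7 each, exact permutation p = 0.0822). The range there was 11.1 to 71.4% in MEF-1 lines and 4.35 to 45.5% in MEF-2 lines, with parental libraries at 41.4 and 31.2%. The highest mean was that of the CpG at position 12770264, 600 bp upstream, at 96.7% ± 3.12 and 98.0% ± 3.44.

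Upstream of Igf2r, where the CpGs named below other than those at 344 and 600 bp were chosen after their values were seen, levels were 62.2% ± 6.41 in MEF-1 lines and 64.1% ± 5.53 in MEF-2 lines (SD, n = 7 each), with no difference beyond the spread between lines (exact permutation p = 0.570, adjusted p = 0.871). The 5 CpGs between 224 and 241 bp upstream had close levels within a line. At 231 bp, for example, MEF-1 lines 1 to 7 were at 50.0, 61.9, 57.1, 44.4, 35.0, 38.1 and 30.0%, and MEF-2 lines 1 to 7 at 61.5, 40.9, 58.8, 35.3, 21.4, 54.5 and 30.8%. Farther upstream single lines departed from their neighbours: at 292 bp MEF-2 lines 1 and 5 were at 100% (19 of 19 and 32 of 32 reads), while 6 bp away they were at 63.2 and 47.1%.

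At 344 bp upstream of Igf2r (position 12770008) lay the largest difference between the families among the called members. MEF-1 lines were at 38.5 to 58.6% with a median of 50.0%, and MEF-2 lines were at 95.8 to 100% with a median of 100%. The parental libraries were at 36.1% (MEF-1) and 96.2% (MEF-2), so the parental libraries differed in the same direction. The difference of the means was -49.5 points, and the families did not overlap. As this CpG was picked for its difference, no further test is given for it. At 337 bp, 7 bp away, MEF-1 lines ranged from 57.7 to 100% and MEF-2 lines from 97.0 to 100%.

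At 430 and 432 bp upstream of Igf2r, lines of the same family differed widely. At 430 bp MEF-2 lines 2, 3 and 4 were at 95.7, 100 and 100%, and lines 1, 5, 6 and 7 were at 52.4, 45.2, 34.2 and 32.1%. At 432 bp, 2 bp away, line 3 was at 42.9% (12 of 28 reads), so in this line the former CpG was methylated on all 28 reads and the latter on a part of them. The next CpGs upstream, at 444 and 456 bp, were called between the families in the opposite direction to that at 344 bp, 30.9 and 25.9 points higher in MEF-1 lines. MEF-1 lines were at 88.0 to 100% at the former and 91.7 to 100% at the latter, while MEF-2 lines ranged from 46.2 to 95.2% and from 47.4 to 100%. The parental libraries were closer to each other, at 90.9% (MEF-1) and 80.4% (MEF-2) at 444 bp and at 100 and 86.7% at 456 bp.

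**Figure D3:**
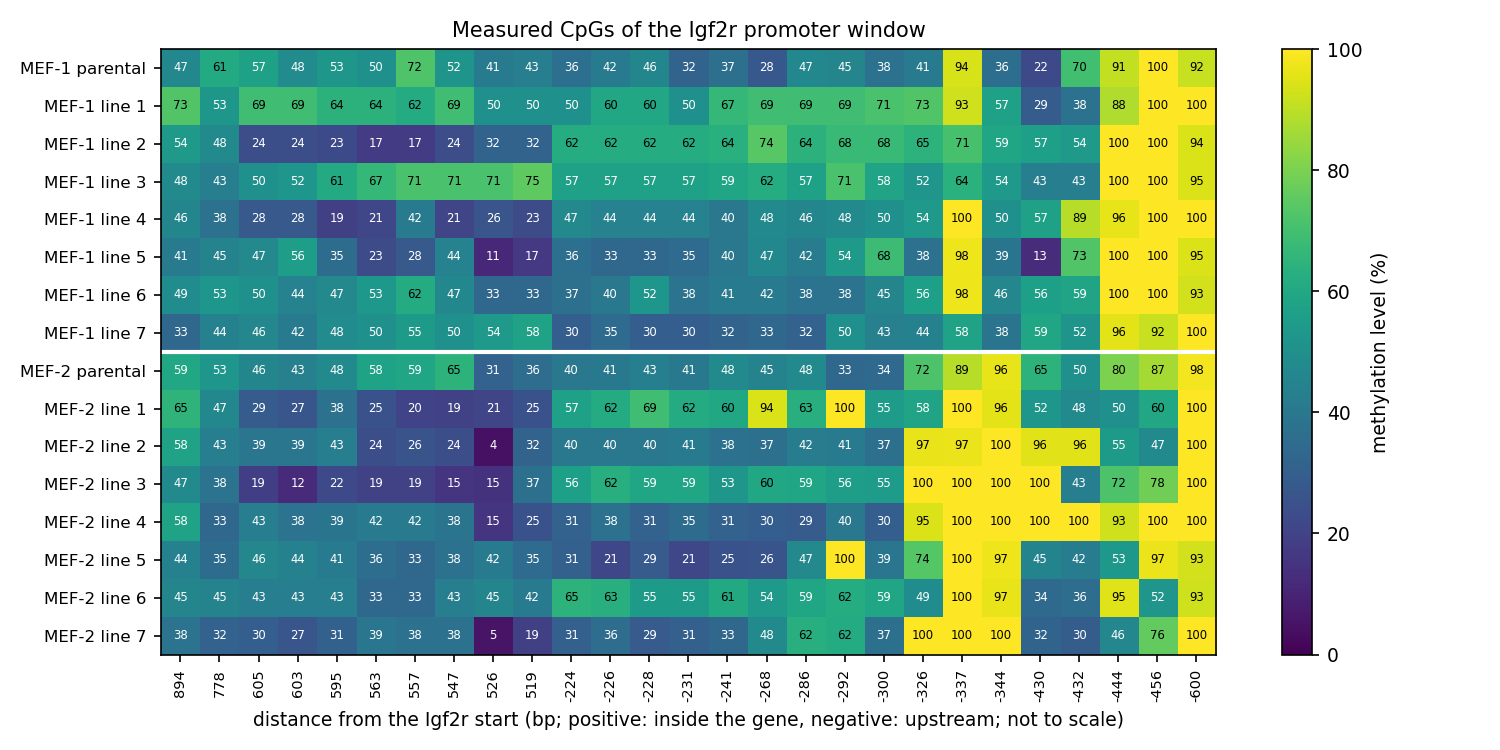
Methylation level of each of the 27 measured CpGs of the Igf2r promoter window (columns, labelled by distance from the start in bp, positive inside the gene and not to scale) in each library (rows), with the level in percent printed in each cell. At -344 bp MEF-1 lines are at 38.5 to 58.6% and MEF-2 lines at 95.8 to 100%, while the gene side varies from line to line.

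Since both promoters were measured in the same library, their levels were compared within lines. The Airn minus Igf2r promoter difference in MEF-1 lines 1 to 7 was -58.0, -1.29, -15.1, 7.84, -14.1, 15.8 and 2.37 points, and in MEF-2 lines 1 to 7 it was 7.36, 7.17, -6.54, 3.07, -1.48, -21.4 and 8.44 points. Airn was the higher of the pair in 3 of 7 MEF-1 and 4 of 7 MEF-2 lines. The mean was -8.93 points in MEF-1 (exact sign-flip permutation test, p = 0.469, adjusted p = 0.938) and -0.48 points in MEF-2 lines (p = 0.953, same permutation test), where the smallest p that 7 lines allow is 0.0156. The MEF-1 mean without line 1 was -0.76 points. The MEF-2 mean depended on the window and was -10.7 points with windows of 500 bp (exact sign-flip permutation p = 0.0156) and 9.49 points with windows of 2000 bp (exact sign-flip permutation p = 0.0312), both unadjusted. With 500 bp the Airn CpGs stayed the same, and the Igf2r window held upstream CpGs only.

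Across the lines of a family, the Airn and Igf2r promoter levels had a Pearson r of -0.53 (MEF-1, exact permutation p = 0.224, Spearman rho -0.21, exact permutation p = 0.662) and of -0.51 (MEF-2, exact permutation p = 0.244, rho 0, exact permutation p = 1). Without the 2 lines farthest from the median Airn level, r was -0.07 and 0.30, so the negative values rested on those lines. None of the 6 relations computed among both levels and the coverage of the members passed an adjusted p of 0.05 (Pearson adjusted p from 0.276 to 0.484, Spearman from 0.707 to 1, exact permutation tests).

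Between the families, 21 of the 118 members (17.8%) were called, that is, had an adjusted p under 0.05 in a quasi-binomial model fitted to all CpGs, beside 20.2% of the 1203687 CpGs tested. Of these, 8 were higher in MEF-1, where 11.6% of all CpGs were, and 13 were higher in MEF-2, where 8.53% of all CpGs were. The share of members is thus close to that of the whole table. None of the 6 CpGs of the Airn promoter was called, 3 of the 18 CpGs 1 to 2 kb downstream were, and 4 of the 27 CpGs of the Igf2r promoter were, all 4 on its upstream side. In 6 of the 21 called members (28.6%) the lines of both families did not overlap, beside 46.5% of all called CpGs. In 6 of the 21 as well, MEF-2 lines had a mean of at least 90% and MEF-1 lines one between 40 and 70%. Over all called CpGs this share was 12.7%. The pattern was picked after the levels had been seen and was not tested. Its reverse also occurred, as at position 12753044 (MEF-1 mean 97.8%, MEF-2 mean 56.5%), but was not counted over all CpGs. Whatever the level of the other family, MEF-2 lines had a mean of at least 90% at 8 called members. MEF-1 lines had such a mean at 6.

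The 5 largest differences among called members were taken by rule and are described without a test of their own, and the first is the CpG at 344 bp upstream of Igf2r described above. At position 12852979, in an Airn intron, MEF-1 lines were at 11.8 to 64.3% (median 50.0%) and MEF-2 lines at 88.9 to 100% (median 100%). MEF-1 line 1 was the lowest there, and the parental libraries were at 56.9% (MEF-1) and 73.3% (MEF-2). At position 12726321, in an Igf2r exon, MEF-1 lines were at 0 to 11.1% and MEF-2 lines spread from 5.71 to 100% around a median of 54.2%. Parental libraries were at 7.41% (MEF-1) and 36.1% (MEF-2) at this CpG.

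At position 12853922, in an Airn intron, MEF-1 lines were at 87.5 to 100% (median 100%) and MEF-2 lines at 31.2 to 100% (median 43.8%). The parental libraries were at 89.5% (MEF-1) and 81.25% (MEF-2), closer to each other than the clonal means, which lay 46.1 points apart. At position 12753044, in introns of both genes, MEF-1 lines were at 94.1 to 100% and MEF-2 lines spread from 18.2 to 100% (median 41.4%). There the parental libraries were at 100% (MEF-1) and 50% (MEF-2). At the last 3 of these 5 positions 1 family was nearly uniform, and the lines of the other family covered a wide range.

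**Figure D4:**
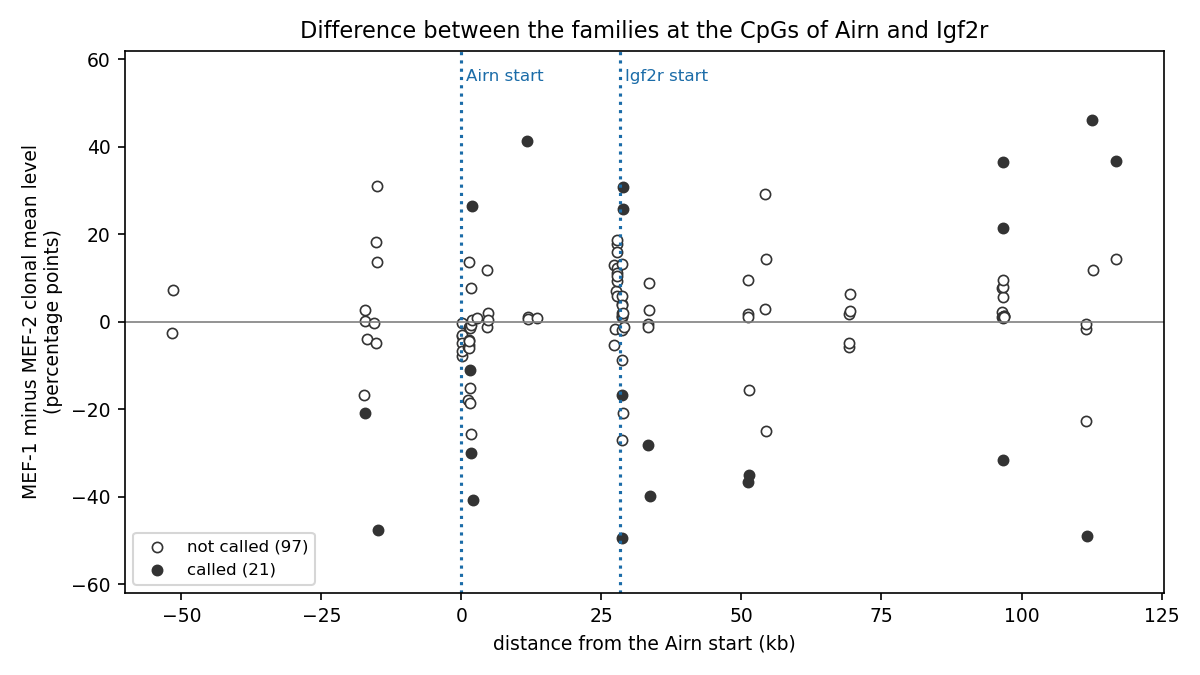
Difference of the clonal mean level, MEF-1 minus MEF-2 in percentage points (y axis), at each of the 118 members against its distance from the Airn start in kb (x axis). Filled points are the 21 members called between the families and open points the others, and dotted lines mark the starts of Airn and Igf2r. Called members lie on both sides of 0, from the 3′ part of Igf2r to that of Airn.

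Each clonal line was also compared with the library of its parental culture by Fisher's exact test, which compares 2 libraries and not conditions. MEF-1 lines 1 to 7 had 3, 6, 2, 1, 1, 4 and 5 called members of 118, while the share of all CpGs called in these lines was 1.49, 5.53, 4.81, 1.34, 1.54, 4.95 and 4.54%. MEF-2 lines 1 to 7 had 9, 9, 7, 10, 14, 9 and 10 called members, while the share of all CpGs called was 6.58, 6.03, 4.68, 6.39, 7.38, 7.93 and 6.98%. As a mean over lines, 2.66% of members were called in MEF-1 and 8.23% in MEF-2, beside 3.46 and 6.57% of all CpGs. The calls were higher than the parental level in 16 of 22 cases (72.7%) in MEF-1 and in 49 of 68 cases (72.1%) in MEF-2 lines, beside 50.9 and 54.8% of the calls over all CpGs. Calls at neighbouring members share reads, and these shares were not tested.

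No line was called against its parental library at 77 of the 118 members, and 12 members were called in 3 or more lines. These are 65.3 and 10.2% of members, close to the 67.1 and 9.62% of all CpGs. The member called most often was the CpG at position 12689651, in an Igf2r intron, with 7 lines. Its parental libraries were at 65.0 and 61.0%. MEF-1 lines 1 to 7 were at 100, 97.5, 97.8, 83.8, 58.8, 48.0 and 95.5%, and MEF-2 lines 1 to 7 at 97.1, 97.6, 91.9, 80, 47.9, 98.0 and 87.5%, so most lines of both families were above their culture and others below it. The CpG at position 12852852, in an Airn intron, was called in 6 lines and ranged from 3.85 to 63.6% in MEF-1 lines and from 1.52 to 91.2% in MEF-2 lines, with parental libraries at 48.5 and 48.8%. Both were chosen after their values were seen.

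Away from the promoters both genes had higher mean levels than in the whole promoter windows, a comparison that was not tested. The upstream side of the Igf2r window alone, at 62.2 and 64.1%, was close to the level of Igf2r toward its end. Between the promoter windows, where Airn and Igf2r overlap, the level was 67.7% ± 3.60 in MEF-1 lines and 70.6% ± 2.32 in MEF-2 lines (SD, n = 7 each, 30 CpGs, exact permutation p = 0.104, adjusted p = 0.312). In Airn beyond the Igf2r promoter window it was 74.0% ± 2.86 and 73.9% ± 2.38 (42 CpGs, exact permutation p = 0.922, adjusted p = 0.922). In Igf2r from its end to the Airn promoter window it was 63.4% ± 3.87 and 62.9% ± 5.67 (13 CpGs, exact permutation p = 0.845, adjusted p = 0.922). The mean over all members was 61.3% in MEF-1 lines and 61.8% in MEF-2 lines, beside 44.0 and 42.4% over all CpGs.

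Single CpGs within these stretches were near 50% or near 0. At position 12837853, in an Airn intron and 96542 bp from its start, all libraries but that of MEF-1 line 1 were between 30.8 and 60.9%, and MEF-1 line 1 was at 100% (20 of 20 reads, Wilson interval 83.9 to 100%, Fisher's exact test against its parental library, adjusted p = 0.00245). The next member, 58 bp away, was at 100% in MEF-1 line 1 and at least 94.1% in every other library. A cluster of 5 CpGs 69198 to 69336 bp from the Airn start stayed below 50% in every library, with family means of 0.893 to 14.6%. These CpGs were chosen after their values were seen.

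Clonal levels of 0 to 10, 40 to 60 or 90 to 100%, the levels that a single cell with a diploid genome can pass on unchanged, are called faithful. Over all members 70.9% of 1652 pairs of a CpG and a line were faithful, beside 83.3% over all CpGs, and 26.7% were between 40 and 60%, beside 9.59%. The faithful share was 67.9% at the Airn promoter, 69.0% at 1 to 2 kb downstream of its start, 54.5% over the whole Igf2r window, 40% on its gene side and 63.0% upstream. With the wider limits of 0 to 20, 30 to 70 and 80 to 100%, these shares were 94.0, 94.8, 87.6, 80 and 92.0% in the same order, beside 93.8% over all members and 96.0% over all CpGs. These shares describe the windows and were not tested. Read sampling at this depth moves part of the pairs across these limits.

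Read coverage was compared because a changed number of chromosome copies would change the share of each parental copy. Relative coverage is the mean number of reads per CpG of chromosome 17, scaled to the median autosome of the library and divided by the median MEF-2 clonal line. Every autosome entered this scaling, also those that the authors had removed. It was 1.04 in the MEF-1 parental library and 0.842, 1.02, 1.01, 1.01, 0.987, 1.01 and 1.02 in MEF-1 lines 1 to 7. It was 1.02 in the MEF-2 parental library and 1.01, 0.986, 1.01, 0.993, 1, 1.01 and 0.977 in MEF-2 lines 1 to 7. MEF-1 line 1 was the lowest, and the other libraries lay close together.

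The lower value of MEF-1 line 1 was seen along the whole chromosome. A repeat copy on chromosome 17 has very high coverage. Within the chromosome the median coverage of CpGs was therefore used in place of the mean. By this median MEF-1 line 1 was between 0.745 and 0.871 in all 19 bins of 5 Mb, whereas the other 15 libraries were between 0.931 and 1.12. By the same median MEF-1 line 1 was at 0.789 on the chromosome, 0.795 over the 5386 CpGs within 5 Mb either side of the genes (0.963 to 1.04 in the other clonal lines) and 0.763 over the 118 members (0.931 to 1.16). Only CpGs with at least 10 reads in every library were used, which can raise the value of the line with the fewest reads. The families did not differ in the coverage of chromosome 17 beyond the spread between lines (means 0.986 ± 0.0644 and 0.998 ± 0.0134, SD, n = 7 each, exact permutation p = 0.932, adjusted p = 0.979 over 4 measures).

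MEF-1 line 1 was thus the line with the lowest coverage of chromosome 17, the lowest Airn promoter level and the highest level of the whole Igf2r window. The latter rank came from the gene side, as upstream of Igf2r the line was at 67.7%, below MEF-1 line 2 (69.6%) and MEF-2 lines 1 and 3 (70.5 and 72.2%). With a minimum of 5 reads it was at 63.7% over the whole Igf2r window, below the highest other library at 64.6%. The part of the coverage in these levels was not tested. Over the 7 MEF-1 lines, the Airn promoter level and the coverage of the members had an r of 0.78 (exact permutation p = 0.0460, adjusted p = 0.276, and rho 0.57, exact permutation p = 0.20, adjusted p = 0.707), and r was 0.20 without the 2 lines farthest from the median level and 0.40 without MEF-1 line 1 alone. In MEF-2 lines r was -0.32 (exact permutation p = 0.484, rho -0.54, exact permutation p = 0.236). The MEF-1 relation thus rested on line 1.

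**Figure D5:**
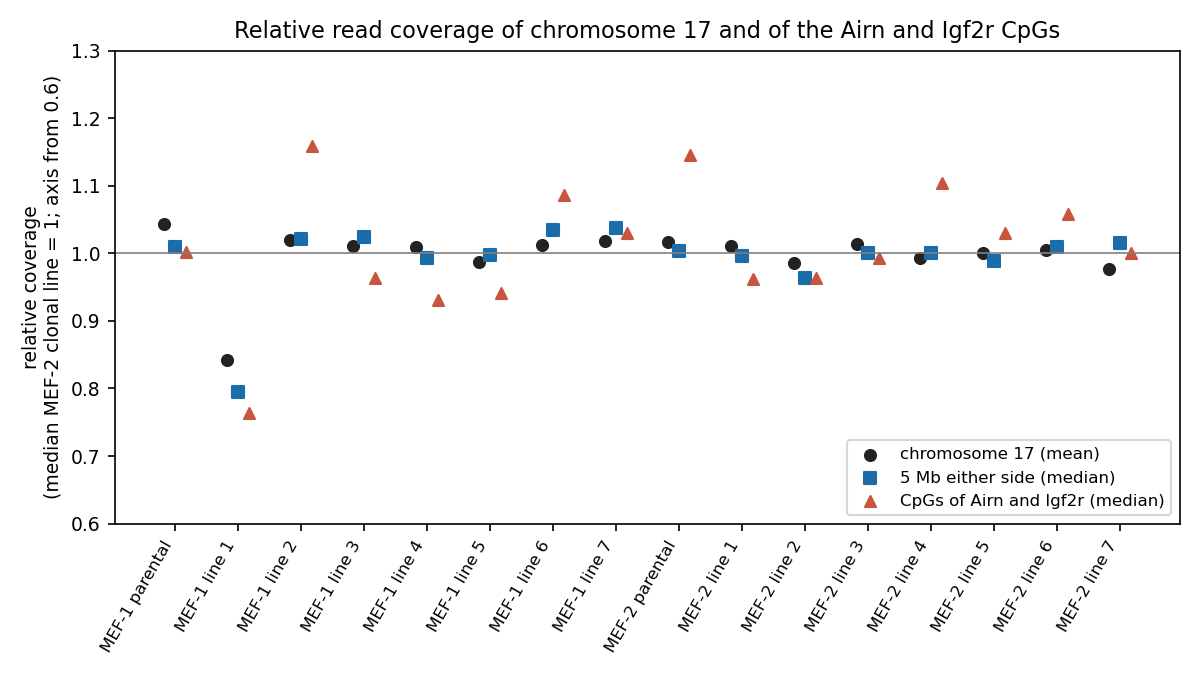
Relative read coverage (y axis, median MEF-2 clonal line set to 1, axis from 0.6) of chromosome 17 (mean), of the 5 Mb either side of Airn and Igf2r (median) and of their 118 CpGs (median) in each library (x axis). MEF-1 line 1 is at 0.842, 0.795 and 0.763, below every other library on all 3 measures.

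Among 19911 gene promoter windows with at least 3 measured CpGs, 806 (4.05%) had a mean between 40 and 60% in both families, and Airn and Igf2r were among them. In those 806 the median SD between lines was 5.04 points in MEF-1 (quartiles 3.61 and 6.88) and 5.67 points for MEF-2 (quartiles 4.2 and 7.90). The SD of Igf2r was 5.91 points in MEF-1 and 3.12 points among MEF-2 lines. That of Airn was 20.7 points, or 12.1 points without line 1, in MEF-1 and 8.77 points among MEF-2 lines. The Airn value rests on 6 CpGs that share reads.

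Other promoters methylated on the maternal copy were a list of 11 genes, of which 9 were measured. In 4 of the 9 both family means were between 40 and 60%, and in 1 (Nnat) both were above 90%. The medians of the 9 were 50.5% for MEF-1 and 47.0% for MEF-2 lines. Zrsr1, a splicing factor retrogene, was at 47.8% ± 5.12 and 47.0% ± 2.36, and Peg13, a non-coding RNA, at 52.6% ± 4.56 and 48.0% ± 3.78 (SD, n = 7 each). Peg3, a zinc finger gene, was at 51.2% ± 6.85 and 44.3% ± 5.49. Of genes added after their values were seen, Plagl1 was at 22.3% ± 2.00 and 19.5% ± 9.34 and Nespas at 39.1% ± 6.05 and 47.1% ± 8.92. In MEF-1 line 1 the promoters of Zrsr1, Peg13, Peg3, Plagl1 and Nespas, all on other chromosomes than Airn, were at 47.2, 49.5, 59.8, 20.8 and 39.3%, beside 7.69% at Airn. That Airn level rests on 6 CpGs with 10 to 12 reads each, and over 31 CpGs with a minimum of 5 reads it was 24.6%. The cause of this gap was not tested.

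The genes around the pair were a list of 15. Of these 14 were matched to the annotation by symbol and 1 (Park2) was not and was left out, 3 had no measured CpG near the start and 11 had a measured promoter. Among the measured ones, 0 of the 11 were between 40 and 60% in both families. Slc22a3, an organic cation transporter gene that Airn silences in the placenta, was at 41.6% ± 1.77 in MEF-1 lines and 39.6% ± 5.83 in MEF-2 lines (27 CpGs). The promoters of the chaperonin gene Tcp1 and of its neighbour Mrpl18, a mitochondrial ribosomal protein gene, were at 5.64 and 3.74% in MEF-1 lines and 6.78 and 3.45% in MEF-2 lines. Plg, which encodes plasminogen, was at 79.7% ± 4.39 and 74.5% ± 5.12. Some neighbours differed more between the families, in either direction. Of genes added after their values were seen, Acat3 was at 45.4% ± 4.29 in MEF-1 lines and 18.8% ± 4.81 in MEF-2 lines. Wtap, with 2 measured CpGs, was at 0.697% ± 1.19 and 32.4% ± 5.26 (SD, n = 7 each). These differences were not tested.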

How the data were processed

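Genomic DNA of 16 MEF libraries, 1 parental and 7 clonal per family, was measured by tcBS-seq, and lines were grouped by the titles in the labels. The authors deposited unmethylated and methylated read counts per CpG, as 1 table per library and as 1 joint table. The joint table holds CpGs that reached 10 reads in every library, without the sex chromosomes and the chromosomes that the authors found to be aneuploid. According to the submitters' processing notes and the study's methods, reads were trimmed with Trim Galore 0.6.0, aligned with Bismark to mm10, kept at a mapping quality of at least 10 and combined over both strands, and R 3.6.1 was used. Removal of duplicate reads is not given in the sources used here. The count columns were used, 2 columns of per-sample values (coverage and methylated percentage) were not, nor were the authors' own fidelity and neighbour scores. For the 118 members the counts were the same in the library tables.

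Levels were pooled per line over the CpGs of a window and compared between families by exact permutation tests, and within lines by sign-flip tests. Single CpGs were tested by a quasi-binomial model (F-test, dispersion not below 1) and by Fisher's exact test against the parental library, each over all 1203687 CpGs with Benjamini-Hochberg adjustment and a threshold of 0.05. Intervals are 95% Wilson intervals and cover counting error only, since reads carry no molecular identifiers. Lines of a family come from 1 culture, so p-values measure the spread between lines of these cultures. Named CpGs were those with the highest and lowest mean in each promoter window and the 5 largest differences among called members; others are named as chosen after their values were seen. The members, gene lists and tests were chosen with earlier results of these data known. Alternatives were other coverage minimums and windows, thinning to 10 reads, a replicate block and leaving out lines. Python 3.11.15, numpy 2.4.6, pandas 2.3.3, scipy 1.17.1, numba 0.67.0 and matplotlib 3.10.9 were used.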

Additional observations from a re-analysis of the deposited data

Results flagged for a closer look

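Among 24 groups of 7 lines (levels of windows and relative coverages), 3 held a line far from the others, in each case MEF-1 line 1 in a measure of its chromosome 17 coverage. Chance sets apart about 1 in 20 groups, but these 3 measures share reads and are not separate observations, so their number was not compared with that rate. The relative mean coverage of chromosome 17 in MEF-1 line 1 was 0.842, and the next lowest MEF-1 line was at 0.987, a gap of 0.810 of the range of the 7 lines. The median coverage of chromosome 17 was 0.789, with the next lowest line at 0.999 and a gap of 0.905 of the range. In the 5 Mb either side of the genes it was 0.795, with the next lowest line at 0.994 and a gap of 0.820 of the range. The Airn promoter level of the same line, 7.69%, was the lowest of its group but did not lie far enough from the next, 37.5%, to be set apart in this way.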

How the results depend on the processing

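Of 93 values under alternatives, 70 were sorted as unchanged, which for differences and correlations means the same direction and side of the threshold. Among the 70 are also counts and shares, which have no direction and were not required to be equal. Another 16 changed sign, all of them differences or correlations that had passed no adjusted test. The Airn promoter difference between the families ranged from -8.73 to 2.15 points when single lines were left out, the latter without MEF-1 line 1, and was 4.57 points without MEF-1 lines 1, 4 and 5. The Igf2r promoter difference was -1.87 points for the upstream side alone, -2.06 points for 500 bp either side of the start, and 2.43 to 5.13 points when single lines were left out. The 500 bp setting held upstream CpGs only as well, so it is not separate from the upstream side alone. The Airn minus Igf2r difference within MEF-1 lines was 1.73 points with windows of 2000 bp, 0.44 points without MEF-1 lines 1, 4 and 5, and -13.0 to -0.76 points when single lines were left out. Within MEF-2 lines it was 2.30 points with a minimum of 5 reads, -10.7 points with windows of 500 bp (exact permutation p = 0.0156), 9.49 points with windows of 2000 bp (exact permutation p = 0.0312) and -1.97 to 3.00 points when single lines were left out, so its sign depended on the window. Without MEF-1 line 1 the difference for Airn beyond the Igf2r window was -0.40 points, that of the chromosome 17 coverage 0.0114, and the MEF-1 correlations were 0.17 (Airn and Igf2r), 0.40 (Airn and coverage) and 0.0254 (Igf2r and coverage). Without MEF-1 lines 1, 4 and 5 the difference of the chromosome 17 coverage was 0.0173 (exact permutation p = 0.0394) and that of the 3′ part of Igf2r was -0.60 points. The number of members called between the families was 9 of 49 with a minimum of 20 reads, because fewer members were tested (23.2% of all CpGs then called), 17 after thinning to 10 reads (16.1%) and 15 without MEF-1 lines 1, 4 and 5 (14.1%). Calls against the parental library fell to 0 in both families after thinning to 10 reads, as they did at all 1203687 CpGs in every line, so this setting made no call anywhere. There, 2 to 5 members per MEF-1 line and 1 to 6 per MEF-2 line had an unadjusted p under 0.05 in Fisher's exact test. With a minimum of 20 reads the MEF-2 calls fell to 40, at 49 members tested (mean over lines 11.7% of members and 10.4% of all CpGs). The faithful share at the Igf2r promoter was 87.6% with limits of 20, 30, 70 and 80% in place of 10, 40, 60 and 90%. The cause of these changes was not tested. With the line number as a replicate block the differences were -4.45 points for Airn (exact permutation p = 0.594) and 3.99 points for Igf2r (exact permutation p = 0.109), and 19 members were called (17.2% of all CpGs). The numbers do not pair the lines, as same-numbered lines correlated at -0.00388 to 0.00170 and in 0 of 7 cases best with their own number. A minimum of 20 reads left 0 CpGs in the Airn and Igf2r windows, and no member lay in the 1000 bp before the Airn start. MEF-1 line 1 had 10 to 12 reads per CpG at the Airn promoter, which limits the precision of its level there.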
